A study of Mus musculus with 24 samples.

Results

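The subject of this report is the effect of a high-fat diet (HFD) on gene expression in epididymal white adipose tissue (eWAT), averaged over both genotypes of the study. Its value for each gene was the mean of the HFD-minus-chow difference in Lama4 fl/fl mice and the same difference in Lama4 AKO mice. It compared 12 libraries from HFD-fed mice with 12 from chow-fed mice, which together were all 24 libraries of the series, and 15020 of the 16730 genes in the count table were tested. The 4 groups, each of 6 male mice, were chow fl/fl, chow AKO, HFD fl/fl and HFD AKO, named by diet and Lama4 genotype, and mice are named by group and replicate number. Every mouse carried floxed Lama4 alleles, on which exon 3 can be removed, and the Lama4 AKO mice also carried Cre recombinase under the adiponectin promoter, so that deletion was limited to adipocytes. The labels call the floxed controls wild type. Mice ate either a regular breeder chow or a diet with 45% of energy from fat for 20 weeks before the fat pads were taken. The study's figure legends give different ages for the start of feeding on each diet, and an older final age for HFD-fed mice. Effects of diet, age and time of feeding therefore cannot be told apart here. RNA was read by QuantSeq, a method that gives 1 fragment near the poly(A) end of a transcript, and levels are given as counts scaled to library size (CPM) after TMM scaling.

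White adipose tissue stores triglyceride in adipocytes and also holds stromal progenitors, vessels, nerves, macrophages, lymphocytes and mast cells, so a bulk library mixes RNA from all of them. Mast cells are tissue-resident leukocytes that store histamine, serotonin and proteases in granules, carry the high-affinity IgE receptor, and are known to lie in the stroma of fat. A high-fat diet enlarges adipocytes and is known to bring macrophages and other leukocytes into the epididymal pad.

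Library totals ranged from 5579590 to 18764516 counts. Adipocyte markers were present in every library: Adipoq, the adipocyte hormone adiponectin, ranged from 773 to 7786 CPM and Fabp4, the fatty acid carrier of fat cells, from 5657 to 28244 CPM. Of the markers of neighbouring organs, the epididymal gene Lcn5 had 233 counts in its highest library but did not reach 1 CPM in 3 libraries. Ckm, Crisp1, Prm1 and Prm2 were not in the count table. The first principal component of log2 CPM held 45.9% of the variance and ran from a median of -20.9 in chow-fed to 48.4 in HFD-fed mice, with overlap. HFD fl/fl mice 4 and 6 lay at -76.1 and -60.5, on the chow side, and mouse 3 at -9.76, whereas chow fl/fl mouse 3 lay at 46.8 and chow AKO mouse 5 at 22.04, on the HFD side. Results were computed with all 24 libraries, and the counts without these 5 are given beside the results that rest on them. These 5 stand apart along the axis on which the diets differ, so leaving them out enlarges the difference by construction. The fit without them holds only mice 1, 2 and 5 of HFD fl/fl but every HFD AKO mouse. HFD AKO mouse 6, which lay at 0.86 beside 47.1 to 61.4 in the rest of its group, was kept.

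With edgeR's quasi-likelihood test, the call asked for a nominal p-value no higher than 0.001, a change of 1.5 times or more, and 2 CPM or more on average in the group with the highest level. By this rule 345 genes differed between the diets, which was 2.3% of those tested. Of these, 126 (0.839% of the genes tested) were higher and 219 (1.46%) lower in HFD-fed mice. With Benjamini-Hochberg adjustment over all genes, the called genes had adjusted p-values between 0.0042 and 0.0277. Without regard to fold change or level, 939 genes (6.25%) were higher and 1065 (7.09%) lower at an adjusted p of at most 0.05. Without TMM scaling the split of the calls turned from 126 higher and 219 lower to 170 higher and 151 lower. When the 5 libraries that stood apart were left out, 3195 of 14863 genes were called, 1354 higher (9.11%) and 1841 lower (12.4%), and 341 of the 345 genes were among them.

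**Figure D1:**
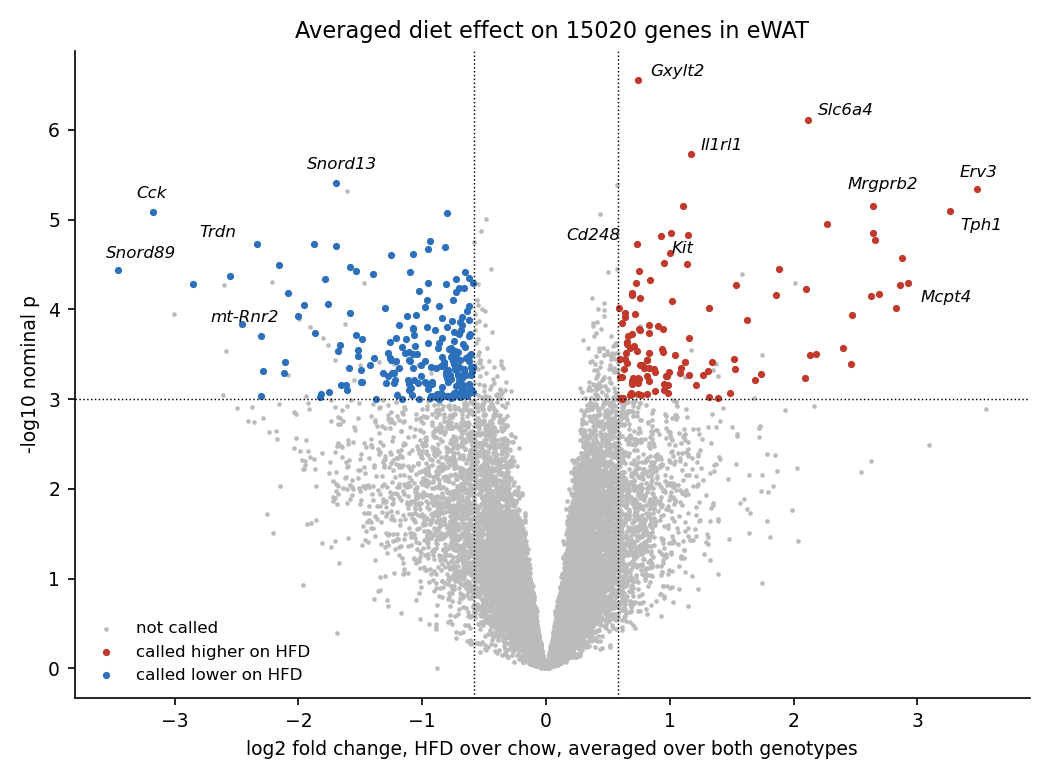
Log2 fold change of HFD over chow, averaged over both genotypes (x axis), against -log10 of the nominal p-value (y axis) for the 15020 genes tested. Each point is 1 gene, red for the 126 called higher and blue for the 219 called lower. Dotted lines mark the criteria of fold change and nominal p-value. Gxylt2 has the lowest p-value, and Cck and Snord89 lie farthest to the left among the named genes.

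Genes of mast cells rose on HFD. All 14 tested members of a list of 16 mast cell genes were called higher, beside 0.839% of all genes tested. The list was chosen with earlier results of these data known, so this count is a description and no test. Their median log2 fold change was 2.47, beside 0.0099 over all genes. It was 1.53 in Lama4 fl/fl and 3.43 in Lama4 AKO mice. Summed over the 14 genes, the level was 58.8 CPM in the lowest, 224 CPM in the median and 569 CPM in the highest chow-fed library, and 80.2, 1447 and 2479 CPM in the HFD-fed libraries. The sum was higher in 10 of the 12 HFD-fed mice than in any chow-fed mouse, and HFD fl/fl mice 4 and 6, at 83.4 and 80.2 CPM, lay within the chow range. Chow fl/fl mouse 3 and chow AKO mouse 5, with 569 and 470 CPM, had the highest chow-fed sums. By group, the median sum was 273 CPM in chow fl/fl, 78.5 in chow AKO, 913 in HFD fl/fl and 1702 in HFD AKO mice. All 14 genes remained called without the 5 libraries that stood apart. That fit drops the lowest HFD-fed and the highest chow-fed sums, so it widens this difference by construction and is no check of it. With all libraries, 10 were called with limma-voom and 10 with the replicate numbers as a block. In whole tissue, more mast cells and more RNA per mast cell cannot be told apart.

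The granule proteases made up most of this signal. Tpsb2, a tryptase, had 13.4, 54.8 and 186 CPM in the lowest, median and highest chow-fed library and 15.9, 516 and 942 CPM in the HFD-fed libraries, a log2 fold change of 2.86 ± 0.58 (SE) with an adjusted p of 0.0122 by edgeR. Cpa3, the carboxypeptidase of mast cell granules, rose from a median of 66.5 to 362 CPM (log2 fold change 2.40 ± 0.56, adjusted p = 0.0212). For both proteases HFD fl/fl mice 4 and 6 were as low as chow-fed mice. The chymases Cma1 and Mcpt4 were higher by 2.69 ± 0.56 and 2.92 ± 0.59 on the log2 scale, and the second tryptase of the list, Tpsab1, by 2.88 ± 0.56. Tpsb2 and Tpsab1 are related neighbours, and the Mcpt genes are a family of copies, so the share of reads of each single member is uncertain.

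Genes for making, storing and taking up the mediators rose as well. Tph1, which starts the synthesis of serotonin in peripheral tissue, went from 0.133, 0.972 and 3.50 CPM (lowest, median and highest chow-fed library) to 0.235, 13.7 and 26.0 CPM in HFD-fed mice, a log2 fold change of 3.27 ± 0.58 (SE, edgeR adjusted p = 0.010). The serotonin transporter Slc6a4 had 0.466, 1.36 and 2.66 CPM on chow and 1.04, 7.72 and 13.01 CPM on HFD, a log2 fold change of 2.11 ± 0.32 (adjusted p = 0.00578). For both genes 10 of 12 HFD-fed libraries were above every chow-fed library. Hdc, which makes histamine, was 1.62 ± 0.36 higher on the log2 scale (adjusted p = 0.017). Slc18a2, which loads amines into granules and stands outside the list (chosen after its values were seen), was 2.66 ± 0.49 higher.

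Surface receptors and the lineage factor showed a wider range of changes. The α and β chains of the IgE receptor, Fcer1a and Ms4a2, were higher by 2.46 ± 0.60 and 2.63 ± 0.55 on the log2 scale, and the call of Fcer1a was lost without HFD fl/fl mouse 1. The orphan receptor gene Mrgprb1 was 2.48 ± 0.54 higher. Its relative Mrgprb2, a receptor through which basic peptides activate mast cells, is not a list member and rose from a median of 0.792 to 5.61 CPM (2.64 ± 0.46, adjusted p = 0.010). Il1rl1, the receptor of interleukin 33, had 9.71, 14.2 and 22.8 CPM in the lowest, median and highest chow-fed library and 11.1, 34.8 and 52.1 CPM in the HFD-fed libraries, with a log2 fold change of 1.17 ± 0.19 (adjusted p = 0.00934). Kit, the receptor of stem cell factor, changed by 0.95 ± 0.19 and Gata2, a transcription factor of the lineage, by 0.93 ± 0.17, the smallest changes of the list. Kit was also the member whose change was larger in Lama4 fl/fl than in Lama4 AKO mice, at 1.18 and 0.72, and in the other members the Lama4 AKO change was the larger one.

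**Figure D2:**
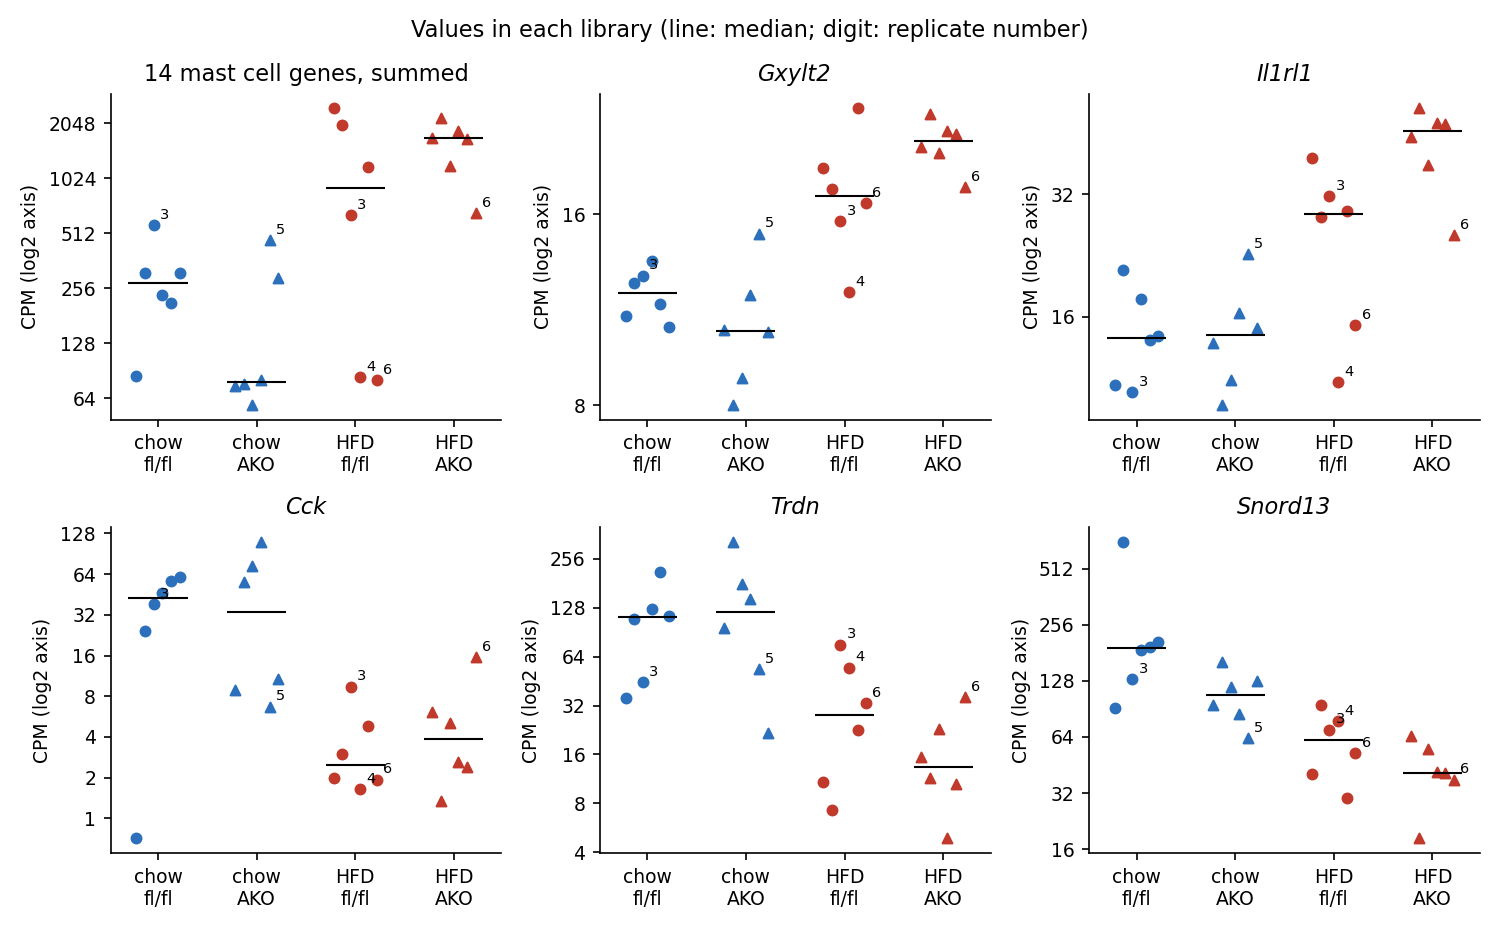
CPM (log2 axis) in each of the 24 libraries for the sum of the 14 mast cell genes, Gxylt2, Il1rl1, Cck, Trdn and Snord13, by group (x axis). Blue is chow and red HFD, circles are Lama4 fl/fl and triangles Lama4 AKO, lines are group medians, and a digit gives the replicate number of the libraries that lay apart from their group. The mast cell sum of HFD fl/fl mice 4 and 6 lies within the chow range, while their Cck lies with the other HFD-fed mice.

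Several called genes outside the list followed the mast cell sum. Across the 24 libraries, after the group means were removed, Tpsg1, a membrane tryptase, correlated with the log2 sum at r = 0.95 and Slc18a2 and Atp8b5 both at r = 0.93, values given as descriptions since the points share library and depth. Of the 112 genes called higher outside the list, 68 (60.7%) had r above 0.7, beside 14.5% of all genes tested. Of the 219 genes called lower, 90 (41.1%) had r below -0.7, beside 12.7% of all genes. The sum also ran along the first principal component. HFD fl/fl mice 1, 2 and 5 had sums of 2479, 2020 and 1182 CPM at 73.5, 48.4 and 48.3 on that component. Mice 4 and 6 of that group had 83.4 and 80.2 CPM at -76.1 and -60.5. A high r thus does not by itself mark a gene as one of mast cells. Acox3 and Foxo3, chosen after their values were seen, both had r = 0.92. Named after their values were seen, Prss34 and Ctsg, which code for proteases of mast cells and other granulocytes, were higher by 2.10 ± 0.43 and 2.09 ± 0.53 on the log2 scale, the transcription factor Myb by 1.89 ± 0.37 and the receptor Cd200r3 by 1.32 ± 0.28. Cyp11a1, which makes pregnenolone from cholesterol, rose from a median of 0.848 to 6.92 CPM (2.64 ± 0.49, adjusted p = 0.0108, r = 0.92). Erv3, an endogenous retroviral gene, rose from a median of 0.128 to 2.91 CPM (3.48 ± 0.59, adjusted p = 0.010). Copies of retroviral sequence elsewhere in the genome make the origin of the Erv3 reads uncertain.

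Promoter sequence gave a further description of these genes. RefSeq (GRCm38.p6) windows from 250 bases before to 50 bases after the start were matched for 10937 of the 15020 genes tested, 90 of the 126 called higher, 161 of the 219 called lower and 12 of the 14 mast cell genes. GATA factors are known to bind the letters AGATAA or TGATAA, on either strand. These letters occurred in 41.7% of mast cell promoters (5 of 12), 20% of those called higher, 12.4% of those called lower and 10.4% of all. The TATA box (TATAAA) was in 25% of mast cell promoters, 12.2% of those called higher, 8.7% of those called lower and 7.74% of all, whereas the GC box (GGGCGG) was in 33.3%, 58.9%, 59.6% and 62.5%. CCAAT was in 16.7% of mast cell promoters, 27.8% of those called higher, 31.7% of those called lower and 38.1% of all, and TGACG, part of the cyclic AMP response element, in 16.7%, 23.3%, 34.2% and 30.6%. All were searched on both strands, and no motif holds another, though neighbouring matches may overlap at their ends. The mast cell promoters are also counted among those called higher. The median GC content of the windows was 46% for mast cell genes and 58.5% for genes called higher. It was 60.7% for genes called lower and 60.7% for all. The part of GC content in the differences between these shares was not tested. A match is a run of letters and no measured binding.

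The 250 bases before the start of 3 mast cell genes are shown because they hold the GATA letters, and those of Cck because it had the largest fall among the 12 genes with the lowest p-values. They lie on the minus strand of GRCm38.p6, at chr3:20242182-20242431 for Cpa3, chr19:11623720-11623969 for Ms4a2, chr14:56062311-56062560 for Mcpt4 and chr9:121495695-121495944 for Cck, and are written 5′ to 3′ along the gene. Capitals mark AGATAA or TGATAA or their reverse complement in the mast cell genes and, in Cck, AGATAA and the reverse complement of TGACG.
Cpa3: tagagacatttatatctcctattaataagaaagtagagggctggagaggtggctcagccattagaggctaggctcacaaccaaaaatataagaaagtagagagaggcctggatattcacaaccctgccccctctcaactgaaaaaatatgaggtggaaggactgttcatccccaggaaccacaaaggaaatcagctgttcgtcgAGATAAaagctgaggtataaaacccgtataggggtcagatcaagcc
Ms4a2: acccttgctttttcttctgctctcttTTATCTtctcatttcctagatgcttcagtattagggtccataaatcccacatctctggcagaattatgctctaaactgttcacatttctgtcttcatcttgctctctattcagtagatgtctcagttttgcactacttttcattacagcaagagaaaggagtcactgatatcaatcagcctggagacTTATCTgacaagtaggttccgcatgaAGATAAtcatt
Mcpt4: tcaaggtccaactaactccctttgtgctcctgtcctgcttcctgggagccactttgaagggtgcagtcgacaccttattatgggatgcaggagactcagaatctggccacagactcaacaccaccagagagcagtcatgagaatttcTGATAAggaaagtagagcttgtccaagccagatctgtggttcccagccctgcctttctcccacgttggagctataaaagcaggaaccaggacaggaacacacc
Cck: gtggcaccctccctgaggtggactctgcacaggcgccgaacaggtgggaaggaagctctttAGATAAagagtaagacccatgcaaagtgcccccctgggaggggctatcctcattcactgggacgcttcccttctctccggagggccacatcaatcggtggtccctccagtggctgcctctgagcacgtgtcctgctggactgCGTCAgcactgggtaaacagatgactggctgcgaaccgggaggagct
The Ms4a2 window holds 3 GATA runs and the Cpa3 and Mcpt4 windows 1 each, and the Cck window also holds 1.

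The lowest p-value of all genes belonged to Gxylt2 (ENSMUSG00000030074, plus strand of GRCm38 at chr6:100704734-100810913), which adds xylose to Notch and related proteins. Its levels were 8.02, 11.3 and 14.9 CPM in the lowest, median and highest chow-fed library and 12.1, 19.5 and 23.5 CPM in HFD-fed mice, a log2 fold change of 0.74 ± 0.10 (SE, edgeR adjusted p = 0.0042), and its correlation with the mast cell sum within groups was 0.65. In 11 of 12 HFD-fed mice Gxylt2 was above every chow-fed mouse, the exception being HFD fl/fl mouse 4. No gene, of 15020 tested, separated all 12 HFD-fed from all 12 chow-fed libraries.

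The progenitor and matrix lists held few calls. Of 18 tested genes of stromal adipocyte progenitors, 1 was called higher and 6 were higher and 1 lower at an adjusted p of at most 0.05, with a median log2 fold change of 0.39. Over all genes tested, 0.839% were called higher, and 6.25% were higher and 7.09% lower at that adjusted p. The called member was Wnt2, a secreted Wnt ligand, which had 0.732, 0.962 and 1.96 CPM in the lowest, median and highest chow-fed library and 1.61, 2.18 and 4.73 CPM on HFD (log2 fold change 1.02 ± 0.22, adjusted p = 0.0146). It was above every chow-fed library in 8 of 12 HFD-fed mice, and its change was 1.002 in Lama4 fl/fl and 1.04 in Lama4 AKO mice. Pdgfra, the receptor that marks progenitors, rose by 0.39 ± 0.13 (adjusted p = 0.0449) and was not called, while Dpp4 differed by -0.26 ± 0.21 (adjusted p = 0.356). The list's median was 0.26 in Lama4 fl/fl and 0.60 in Lama4 AKO mice. Without the 5 libraries that stood apart, 8 of the 18 progenitor genes were called higher and 1 lower, beside 9.11% and 12.4% of all genes in that fit.

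Among 19 tested fibrillar collagens, collagen VI chains and their partners, 1 was called higher and 4 were higher at an adjusted p of at most 0.05, with a median of 0.29. The shares over all genes tested were 0.839% and 6.25%. The called gene was Fn1, fibronectin, at 253, 365 and 547 CPM in the lowest, median and highest chow-fed library and 282, 597 and 869 CPM in the HFD-fed libraries (log2 fold change 0.76 ± 0.17, edgeR adjusted p = 0.018), above every chow-fed library in 8 of 12 HFD-fed mice. None of 19 matrix proteases and inhibitors was called, with medians of -0.07 in Lama4 fl/fl and 0.89 in Lama4 AKO mice. Thbs4, the matrix protein thrombospondin 4, rose from a median of 0.592 to 2.21 CPM (2.27 ± 0.41, adjusted p = 0.0108). Matrix genes that were called but stood in no list, and were chosen after their values were seen, included Cd248 (endosialin, 0.74 ± 0.14), Antxr1 (a collagen-binding receptor, 0.73 ± 0.15), Ecm1 (0.70 ± 0.14), Bmp1 (the procollagen C-proteinase, 0.59 ± 0.13), the collagen receptor Itga11 (0.83 ± 0.20), Col8a2 (1.49 ± 0.39), the microfibril protein Mfap4 (1.39 ± 0.37) and tenascin X, Tnxb (0.69 ± 0.18). Cd248 was above every chow-fed library in 8 of 12 HFD-fed mice, and Itga11 in 6. Ace, the angiotensin-converting enzyme, was 0.63 ± 0.14 higher, and Nkd2 and Dact3, inhibitors of Wnt signalling, were 0.95 ± 0.22 and 0.99 ± 0.26 higher. The correlation with the mast cell sum within groups was 0.90 for Col8a2, 0.80 for Dact3 and 0.71 for Mfap4, lay between 0.55 and 0.68 for Antxr1, Fn1, Nkd2, Thbs4, Ecm1, Bmp1 and Cd248, and was 0.43 for Tnxb, 0.35 for Ace, 0.29 for Wnt2 and -0.13 for Itga11.

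Of 23 tested basement membrane genes, 1 was called lower and none higher, and the median log2 fold change was -0.07. The called gene, Col4a4, codes for a chain of collagen IV and fell from a median of 2.85 to 1.47 CPM (-1.03 ± 0.26, adjusted p = 0.0245), and its call was lost in 12 of the 24 fits that left out 1 library. Lama4, the laminin α4 chain whose gene is deleted in adipocytes, ranged from 41.7 to 194 CPM in chow-fed Lama4 fl/fl, 63.0 to 133 in chow-fed Lama4 AKO, 32.5 to 134 in HFD-fed Lama4 fl/fl and 37.0 to 91.4 in HFD-fed Lama4 AKO mice. The medians were 91.1 CPM in chow fl/fl, 113 in chow AKO, 79.8 in HFD fl/fl and 44.3 in HFD AKO mice. Counts from the 3′ end lie outside the deleted exon, and other cells of the pad express the gene, so they are no direct check of the deletion. The study reported a knockdown of Lama4 by quantitative PCR in eWAT of chow-fed Lama4 AKO mice. The effect of genotype on these counts was not tested here. The averaged diet effect on Lama4 was -0.64 ± 0.24 (adjusted p = 0.0679) and was not called.

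Single called genes stood in other lists. Uchl1, a neuronal ubiquitin hydrolase, rose from a median of 12.7 to 59.9 CPM (2.14 ± 0.51, adjusted p = 0.0216), the call being lost without HFD fl/fl mouse 2, while the other 7 genes of the nerve and Schwann cell list were not called. Gapdh, of glycolysis, rose by 0.60 ± 0.14, just past the fold criterion, with the call lost in 9 of the 24 fits that left out 1 library. In that list of 22, 3 further members were higher at an adjusted p of at most 0.05, beside 6.25% of all genes. Nr1d2, a repressor of the circadian clock, rose by 0.74 ± 0.19, with 0.16 in Lama4 fl/fl and 1.33 in Lama4 AKO mice, and lost its call in 12 of those fits. Among the 12 genes called higher with the lowest p-values, Efcc1 (1.11 ± 0.19), Ndrg4 (1.15 ± 0.21) and B3gnt9, a sugar transferase (1.01 ± 0.18), were each above every chow-fed library in 9 HFD-fed mice. The correlation with the mast cell sum within groups was 0.88 for Uchl1, 0.80 for B3gnt9 and 0.74 for Nr1d2. It was 0.54 for Gapdh, 0.46 for Ndrg4 and 0.27 for Efcc1.

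**Figure D3:**
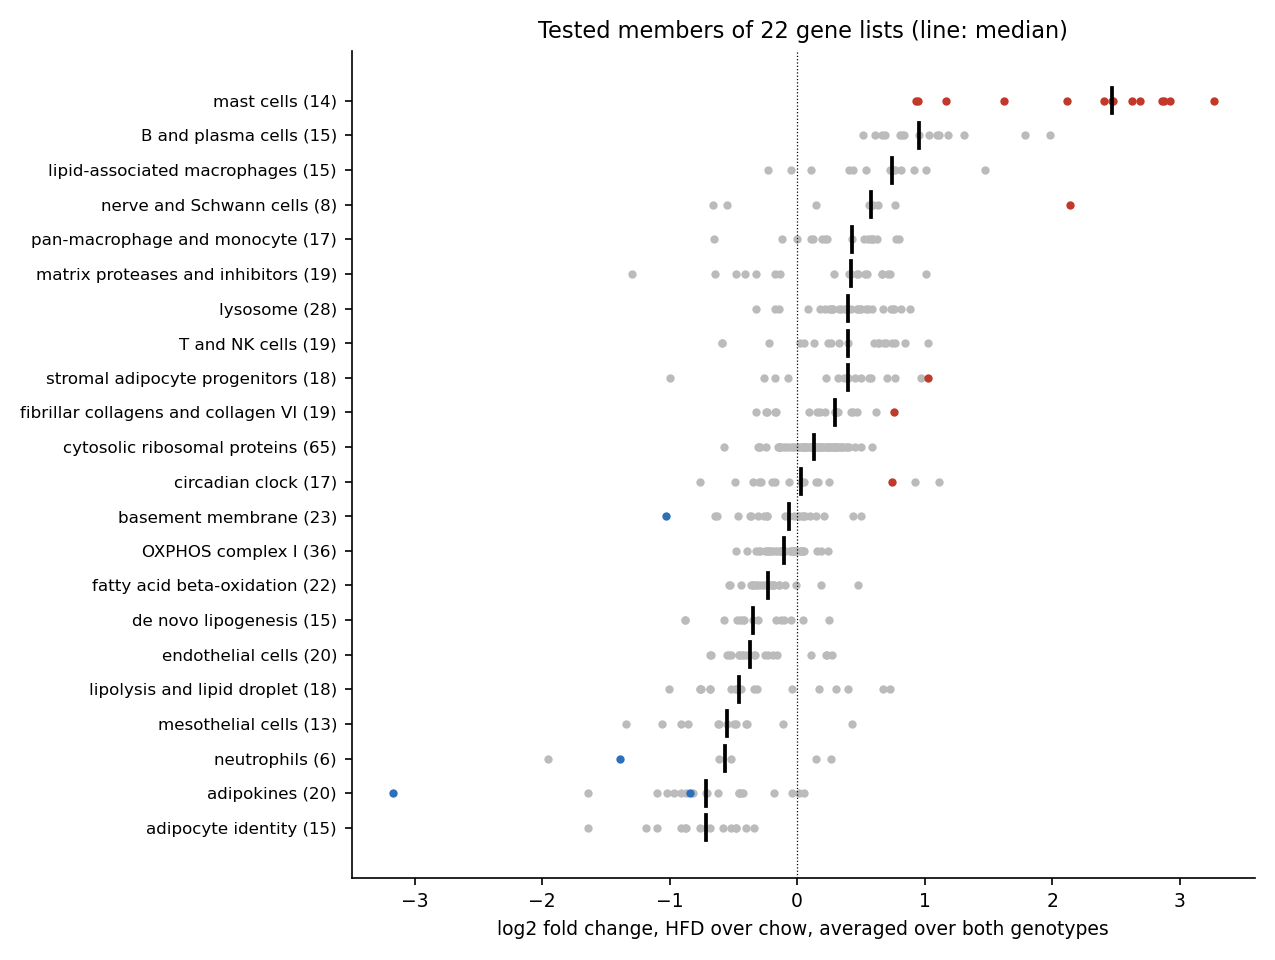
Log2 fold change of HFD over chow, averaged over both genotypes (x axis), for the tested members of 22 gene lists (y axis, number of tested members in brackets). Points are genes, red where called higher, blue where called lower and grey where not called, and black lines are list medians. All 14 mast cell points are red and right of the other lists' medians except 2 beside the B cell median, while every adipocyte identity point is grey and left of 0.

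Among the hormones and signals released by fat, cholecystokinin and haptoglobin fell on HFD. Of 20 tested adipokine genes, 2 were called lower and none higher, against 1.46% of all genes, and the list's median log2 fold change was -0.71. Cck (ENSMUSG00000032532, minus strand of GRCm38 at chr9:121489824-121495694) codes for cholecystokinin, a peptide best known from gut and brain. It had 0.711, 42.5 and 111 CPM in the lowest, median and highest chow-fed library and 1.34, 2.80 and 15.5 CPM in the HFD-fed libraries, a log2 fold change of -3.17 ± 0.56 (SE, edgeR adjusted p = 0.010). All 12 HFD-fed libraries were below the chow-fed median, and the lowest library of all was chow fl/fl mouse 1. The change was -3.32 in Lama4 fl/fl and -3.02 in Lama4 AKO mice (interaction with an adjusted p of 0.894, edgeR). Unlike most called genes, Cck was low in HFD fl/fl mice 4 and 6 (1.65 and 1.94 CPM), and it did not follow the mast cell sum (r = 0.02). The call of Cck was lost with limma-voom.

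Hp, haptoglobin, the other called adipokine, had 1706, 2791 and 5991 CPM in the lowest, median and highest chow-fed library and 1029.8, 1789.5 and 2654 CPM on HFD (log2 fold change -0.84 ± 0.18, edgeR adjusted p = 0.0169), with all 12 HFD-fed libraries below the chow-fed median. The change of Hp was -0.34 in Lama4 fl/fl and -1.34 in Lama4 AKO mice (interaction with an adjusted p of 0.254, edgeR). The mature adipocyte genes were lower but uncalled: of 15 tested, 0 were called and 1 was lower at an adjusted p of at most 0.05, all 15 estimates were below 0, and their median was -0.72. That gene was Cfd, adipsin, with medians of 1422 CPM on chow and 381 CPM on HFD (-1.64 ± 0.45, adjusted p = 0.0296). Estimates for the adipocyte hormones Adipoq and Lep were -0.87 ± 0.35 (adjusted p = 0.0836) and -0.91 ± 0.35 (adjusted p = 0.0719). Lep, leptin, differed by 0.29 in Lama4 fl/fl and by -2.12 in Lama4 AKO mice, with an interaction whose adjusted p was 0.232. The adipocyte identity list had medians of -0.11 in Lama4 fl/fl and -1.25 in Lama4 AKO mice, and the adipokine list -0.03 and -1.21. Without the 5 libraries that stood apart, 9 of 15 adipocyte identity genes and 13 of 20 adipokine genes were called lower, beside 12.4% of all genes in that fit.

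Lists of fat metabolism held no call. Of 15 tested genes of de novo lipogenesis, 22 of sterol synthesis, 18 of triglyceride synthesis and fatty acid uptake, 18 of lipolysis and the lipid droplet, and 22 of β-oxidation, 0 were called, and their medians lay between -0.46 and -0.23. By genotype these medians were 0.23 in Lama4 fl/fl and -1.08 in Lama4 AKO mice for de novo lipogenesis, 0.17 and -0.56 for sterol synthesis, -0.03 and -0.55 for triglyceride synthesis, -0.01 and -0.78 for lipolysis and -0.08 and -0.40 for β-oxidation. The difference between the genotypes was not tested for lists. Without the 5 libraries that stood apart, 5, 7, 6, 7 and 5 members of these lists were called lower, beside 12.4% of all genes, and 2 of lipolysis and 1 of β-oxidation higher, beside 9.11%. The members with the lowest p-values were Acacb (-0.88 ± 0.34), Hsd17b7 (-0.60 ± 0.18), Acsl1 (-0.60 ± 0.18), Plin3 (0.40 ± 0.12) and Cpt1a, which carries fatty acids into mitochondria (0.48 ± 0.14). Cpt1a and Plin3 were higher and Hsd17b7 and Acsl1 lower at adjusted p-values between 0.0349 and 0.0381. In the insulin signalling list, 1 of 17 genes was called: Pik3r1, the p85α subunit of PI3-kinase, fell from a median of 150 to 53.8 CPM (-1.08 ± 0.24, adjusted p = 0.0177), with every HFD-fed library below the chow-fed median. The change of Pik3r1 was -0.43 in Lama4 fl/fl and -1.72 in Lama4 AKO mice (interaction with an adjusted p of 0.254, edgeR). Pik3r3, another regulatory subunit outside the list, fell by 0.93 on the log2 scale. Igfbp2, an IGF carrier, fell from a median of 1.90 to 0.581 CPM (-1.61 ± 0.41, adjusted p = 0.025), and the metallothionein Mt2, counted with the glucocorticoid response, fell by 0.60 on the log2 scale. With 1 library left out, the call of Igfbp2 was lost in 13 of 24 fits and that of Mt2 in 9.

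Immune cell lists other than mast cells held few calls. None of the 15 tested genes of lipid-associated macrophages, the macrophages of crown-like structures, was called, although 13 estimates were above 0 with a median of 0.74, which was 0.02 in Lama4 fl/fl and 1.07 in Lama4 AKO mice. Gpnmb had 131, 1176 and 3611 CPM in the lowest, median and highest chow-fed library and 384, 3632 and 7045 CPM on HFD (1.47 ± 0.51, adjusted p = 0.0534), so the diets overlapped widely. Trem2 differed by 0.77 ± 0.42 (adjusted p = 0.188) and Adgre1, the macrophage marker F4/80, by 0.58 ± 0.35 (adjusted p = 0.231). The 17 pan-macrophage and 12 resident macrophage genes gave 0 calls, with medians of 0.43 (0.05 in Lama4 fl/fl and 0.65 in Lama4 AKO mice) and -0.32 (-0.02 and -0.52). B and plasma cell genes also gave 0 calls among 15, all with estimates above 0 and a median of 0.96, with Iglc1 ranging from 2.13 to 142 CPM on chow and from 1.10 to 791 CPM on HFD. Without the 5 libraries that stood apart, 6 of 15 lipid-associated macrophage genes, 4 of 17 pan-macrophage genes and 2 of 15 B cell genes were called higher, beside 9.11% of all genes in that fit.

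Single inflammatory genes were called lower on HFD, in lists with estimates on both sides of 0. S100a8, a calcium-binding protein of neutrophils, had 16.9, 170 and 275 CPM in the lowest, median and highest chow-fed library and 36.01, 51.3 and 94.2 CPM in HFD-fed mice (log2 fold change -1.39 ± 0.33, edgeR adjusted p = 0.022), and its call was lost without chow AKO mouse 2. The call of S100a8 was also lost without the 5 libraries that stood apart. Ciita, the activator of MHC class II genes, fell by 1.10 on the log2 scale, with -0.23 in Lama4 fl/fl and -1.98 in Lama4 AKO mice (interaction with an adjusted p of 0.233, edgeR), and its call was lost in 15 of the 24 fits that left out 1 library. Ciita was the 1 call among 14 genes of dendritic cells and antigen presentation. In that list 7 estimates were above and 7 below 0, with a median of 0.02. The interferon-induced gene Ifit3 changed by -0.71 ± 0.17, the 1 call among 24 interferon genes, and complement C7 by -1.87 ± 0.42, the 1 call among 20 complement genes. Of all genes tested, 1.46% were called lower. The interferon list had a median of -0.16, with 0.24 in Lama4 fl/fl and -0.40 in Lama4 AKO mice. In the complement list 11 estimates were above and 9 below 0, with a median of 0.20. Of 14 toll-like receptor list genes 0 were called, 11 estimates were above and 3 below 0, and the median was 0.29. Without the 5 libraries that stood apart, 5 toll-like receptor list genes were called higher and 2 lower. In that fit 3 complement genes were called higher and 3 lower, and 1 interferon gene higher and 3 lower. Over all genes in that fit, 9.11% were called higher and 12.4% lower. Chosen after their values were seen, Xaf1 (-1.21 ± 0.28) and Ddx60 (-0.74 ± 0.17), which interferon can induce, were also called lower, as were the cell death genes Ripk1 (-1.48 ± 0.38) and Casp12 (-0.87 ± 0.18). None of 26 cytokine and chemokine genes was called, with a median of 0.03.

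Trdn, triadin, which holds the calcium release complex of muscle (ENSMUSG00000019787, plus strand of GRCm38 at chr10:33080554-33476709), had 21.6, 112 and 325 CPM in the lowest, median and highest chow-fed library and 4.88, 19.1 and 75.7 CPM on HFD. Its log2 fold change was -2.33 ± 0.44 (edgeR adjusted p = 0.0108), all 12 HFD-fed libraries were below the chow-fed median and 6 were below every chow-fed library. Chosen after their values were seen, Casq2, the calcium store protein that binds triadin, changed by -1.79 ± 0.36, the muscle genes Myom3 and Phkg1 by -1.32 ± 0.33 and -1.28 ± 0.32, and the calcium sensor Stim1 by -2.11 ± 0.51, all of them called. Of 12 listed skeletal muscle genes, 5 were tested and 0 called, with a median of -0.36 and a summed level whose median was 69.9 CPM on chow and 48.9 CPM on HFD. Acta1, skeletal actin, differed by -0.90 ± 0.33 (adjusted p = 0.0654). The part of muscle RNA in the fall of Trdn was not tested.

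Snord13 (ENSMUSG00000088252, minus strand of GRCm38 at chr8:31149864-31149967), a small nucleolar RNA of ribosomal RNA processing, had the lowest p-value among the genes called lower. It had 63.0, 129 and 712 CPM in the lowest, median and highest chow-fed library and 18.3, 47.0 and 95.2 CPM in HFD-fed mice, a log2 fold change of -1.70 ± 0.29 (SE, edgeR adjusted p = 0.010). Every HFD-fed library was below the chow-fed median and 8 were below every chow-fed library. Of 29 snoRNAs tested, 4 were called lower and none higher, against 1.46% and 0.839% of all genes, 23 estimates were below 0 and the median was -0.84. The other called ones were Snord118 (-1.70 ± 0.32), also of ribosomal RNA processing, Snord89 (-3.46 ± 0.68) and Gm26225 (-2.85 ± 0.58). Several snoRNAs lie within other genes, whose reads could not be told apart from theirs.

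Both mitochondrial ribosomal RNAs were called lower. mt-Rnr2 had 2763, 23581 and 40286 CPM in the lowest, median and highest chow-fed library and 1659, 2401 and 26483 CPM on HFD, and its log2 fold change was -2.00 ± 0.44 (adjusted p = 0.0163). mt-Rnr1 fell by 1.95 on the log2 scale. In both, 7 HFD-fed libraries were below every chow-fed library, while others reached the chow-fed median. Of 14 mitochondrial tRNAs tested, 0 were called, 13 estimates were below 0 and the median was -0.71. Of 8 tested mitochondrial mRNAs, 1 was called, mt-Nd6, which fell from a median of 9.70 to 2.29 CPM (-1.53 ± 0.30, adjusted p = 0.0122), and the nuclear lists of complex I, complexes II to IV and ATP synthase held 0 calls among 77 genes. Small nucleolar RNAs and mt-Nd6 are known to lack a long poly(A) tail, as are mRNAs of replication-dependent histones. Of 16 histone cluster genes tested, 7 estimates were above and 9 below 0, with a median of -0.49, and 1 was called, Hist1h1e, which fell from a median of 17.7 to 1.21 CPM (-2.55 ± 0.51).

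The other genes called lower included nuclear regulators. Sub1, a transcription coactivator, had 254, 538 and 753 CPM in the lowest, median and highest chow-fed library and 164, 248 and 495 CPM on HFD (-0.95 ± 0.18, adjusted p = 0.011). Nf1, the Ras regulator neurofibromin, changed by -0.82 ± 0.15. Ak6, an adenylate kinase of the nucleus, fell from a median of 74.6 to 22.6 CPM (-1.25 ± 0.24, adjusted p = 0.0117), while Tmem161b changed by -0.94 ± 0.17, Anxa8, an annexin, by -1.07 ± 0.21, Lrtm1 by -1.88 ± 0.35 and the predicted gene Gm37795 by -2.16 ± 0.42. The chromatin proteins Suz12 (-1.11 ± 0.26), Atrx (-0.64 ± 0.16) and Smarca5 (-0.76 ± 0.17), chosen after their values were seen, were also called lower. The proteasome and unfolded protein response lists held 1 call each, Psmc1 (-0.88 ± 0.23), whose call was lost in 17 of the 24 fits that left out 1 library, and Pdia4, a protein disulfide isomerase (-1.04 ± 0.25).

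Base composition differed between the called genes. The median GC content of the longest transcript was 53.4% for genes called higher, 44.2% for genes called lower and 49.2% for all genes tested. Within libraries, the correlation of a gene's deviation from its mean with GC content had a median of -0.075 on chow and 0.098 on HFD, with overlapping ranges. A fit with a correction for GC content, added after the data were seen, called 131 genes higher and 156 lower, of which 232 were among the 345, and the 14 mast cell genes remained called.

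The diet effect was compared between the genotypes gene by gene. All 126 genes called higher and all 219 called lower had the same sign in both genotypes, which a call on the mean of 2 effects favours. The median log2 fold change of the genes called higher was 0.75 in Lama4 fl/fl and 1.09 in Lama4 AKO mice, and that of the genes called lower -0.47 and -1.27. The change was larger in Lama4 AKO mice for 111 of 126 and 209 of 219 genes. HFD fl/fl mice 3, 4 and 6, which stood apart, belong to the first of these groups. An interaction p under 0.05 was found for 15.1% of the genes called higher, 40.6% of those called lower and 15.6% of all genes tested. By the same criteria as the main call, 55 genes (0.366%) had an interaction of diet and genotype, and 1 of them was among the 345 called genes. This was Rgs7, a regulator of G protein signalling, which differed by -0.04 in Lama4 fl/fl and by -2.11 in Lama4 AKO mice (interaction with an adjusted p of 0.194, edgeR).

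**Figure D4:**
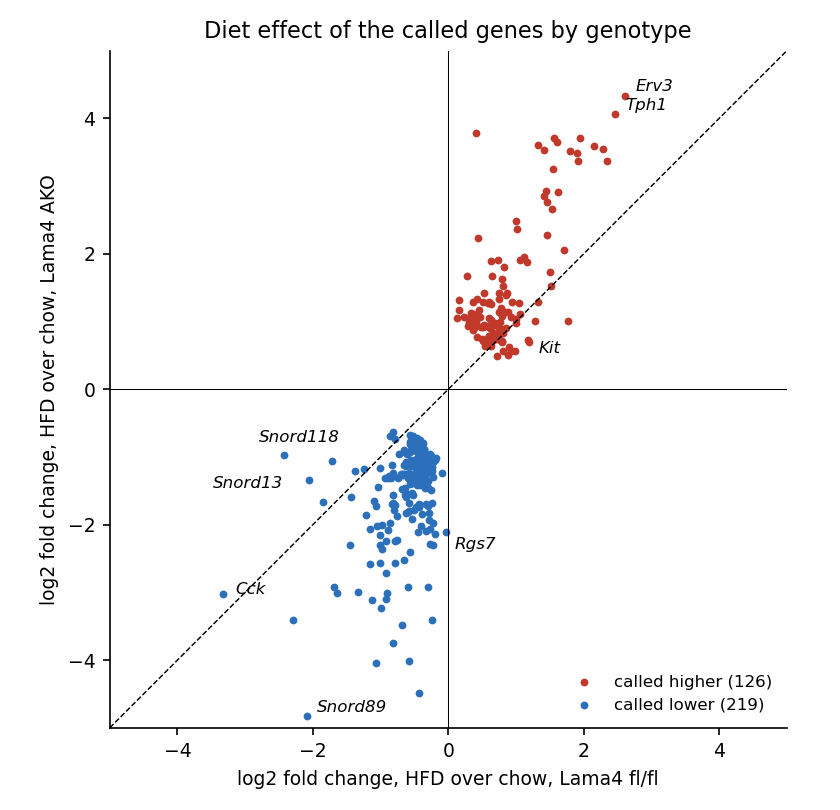
Log2 fold change of HFD over chow in Lama4 fl/fl mice (x axis) against that in Lama4 AKO mice (y axis) for the 126 genes called higher (red) and the 219 called lower (blue). The dashed line marks equal change. Most points lie farther from 0 on the Lama4 AKO axis, and Rgs7 lies near 0 on the Lama4 fl/fl axis.

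The called genes were not shared evenly by the HFD-fed mice. For each gene the midpoint between the chow-fed and HFD-fed medians of log2 CPM was taken, and the called genes on the HFD side of it were counted in each library as a description. The HFD AKO libraries had between 100 and 126 of the 126 higher genes and between 152 and 219 of the 219 lower genes on that side. HFD fl/fl mice 1, 2 and 5 had between 107 and 125 and between 188 and 216. Mice 4 and 6 had 7 and 12 of the higher and 24 and 27 of the lower genes there, and mouse 3 had 59 and 28. Chow fl/fl mouse 3 and chow AKO mouse 5 had 68 and 70 of the higher and 171 and 123 of the lower genes on the HFD side, while no other chow-fed library had more than 17 and 27.

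**Figure D5:**
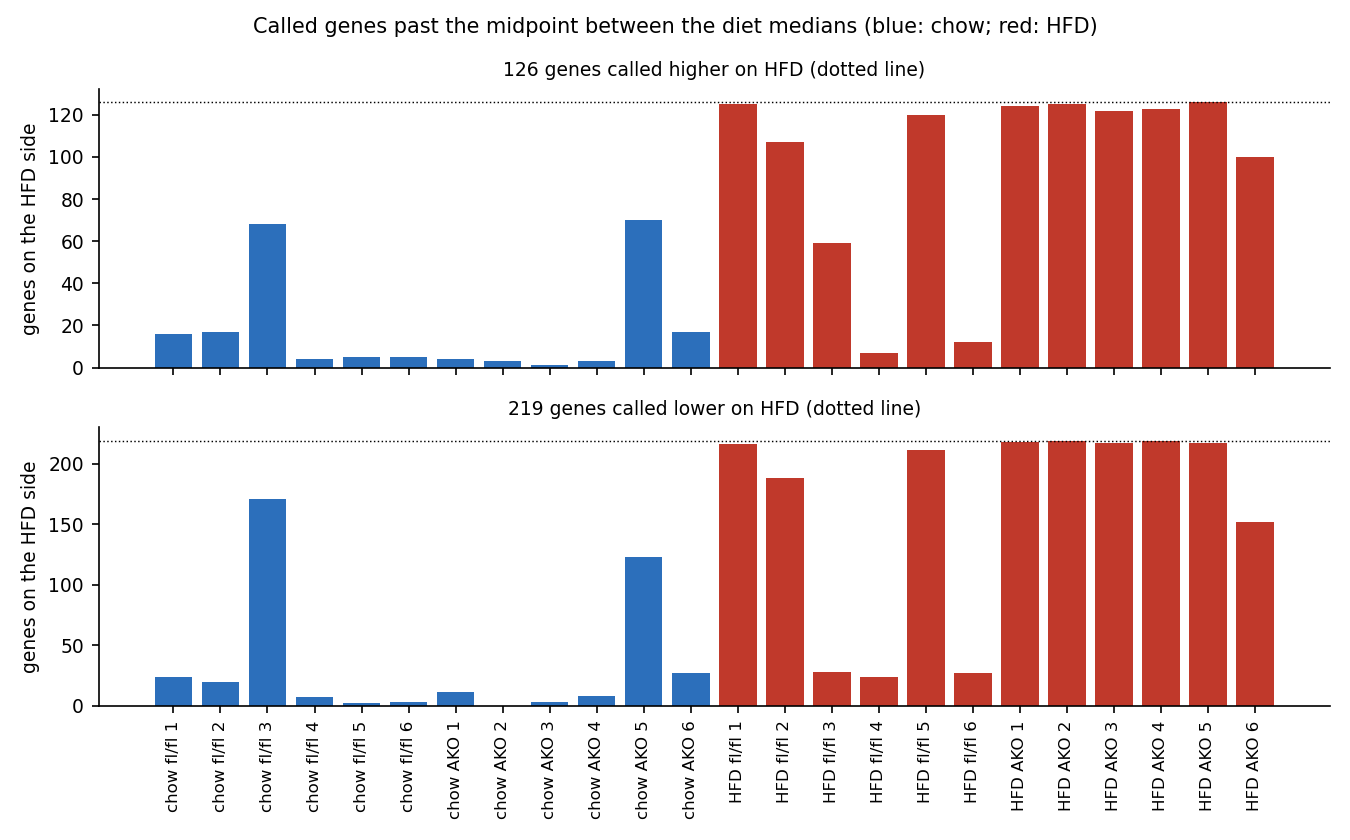
Number of called genes on the HFD side of the midpoint between the diet medians (y axis) in each of the 24 libraries (x axis), for the 126 genes called higher (top) and the 219 called lower (bottom). Blue bars are chow-fed and red bars HFD-fed mice, and dotted lines mark the number of called genes. HFD fl/fl mice 4 and 6 reach 7 and 12 of 126 genes.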

How the data were processed

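RNA of eWAT from 24 mice, 6 in each of 4 groups of diet and genotype, was sequenced by QuantSeq with single 50-base reads. The authors aligned and counted the reads and deposited raw counts per gene, without normalization, on GRCm38. Their processing notes name R 4.0.3 and DESeq2 1.30, and whether counting used strand is not given in the sources used here. A second deposited table of normalized values was not used. Counts of 16730 genes were analysed with edgeR 4.0.16 (R 4.3.3). The 15020 genes that reached 1 CPM in 3 or more libraries were scaled by TMM and fitted with 1 coefficient per group by the quasi-likelihood test, which was first tested on simulated counts. The diet effect was the mean of the HFD-minus-chow contrasts of both genotypes. Standard errors are the fold change over the root of the F statistic, and p-values were adjusted by Benjamini and Hochberg over all 15020 genes.

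Named genes are the 12 called genes with the lowest p-values in each direction, up to 4 called members of each of 53 gene lists (or the member with the lowest p-value), Lama4 and cell type markers. Other genes are said to be chosen after their values were seen, and 1 gene that the rule names is not reported here. The members and lists were chosen with earlier results of these data known. Positions are from GENCODE release 21. Library totals were 5579590 to 18764516 counts, and a count of 0 allows up to 3 counts of a library's total, which covers counting error only. No pair of libraries in a group agreed within sampling noise. Alternatives were limma-voom 3.58.1 with and without sample quality weights, DESeq2 1.42.0, other scalings, filters, models and thresholds, a replicate block, a GC correction, and libraries left out.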

Additional observations from a re-analysis of the deposited data

Results flagged for a closer look

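In 144 groups of 6 libraries, 36 measures each taken in 4 groups, 12 held a library far from the other 5 by Dixon's test, where chance gives about 1 in 20. HFD AKO mouse 6 was low in genes called higher: Erv3 was 0.047 log2 CPM beside 1.43 to 1.98 in the other 5 libraries of the group, Mrgprb2 was 1.29 beside 2.70 to 3.42, and Tpsab1 was 2.78 beside 4.07 to 4.64. In the same library Lama4 was 6.52 log2 CPM beside 5.22 to 5.597, and the first principal component was 0.86 beside 47.1 to 61.4. Chow fl/fl mouse 1 was low in Cyp11a1 (-2.74 beside -0.0035 to 1.13 log2 CPM), Cck (-0.22 beside 4.60 to 5.94) and Mrgprb1 (-1.14 beside 1.43 to 2.73). Chow fl/fl mouse 3 was low in genes called lower on HFD, with 3.16 log2 CPM of Tmem161b beside 4.05 to 4.31, 2.71 of Nf1 beside 3.90 to 4.56 and 4.83 of Ak6 beside 6.00 to 6.50. Chow AKO mouse 5 had 4.99 log2 CPM of Ak6 beside 5.93 to 6.48.

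Rgs7 was the gene called for the averaged diet effect that also met the call criteria, which use the nominal p, for an interaction. The log2 fold change in Lama4 AKO minus that in Lama4 fl/fl mice was -2.08, with an adjusted p of 0.194 for the interaction (edgeR).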

How the results depend on the processing

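All 345 called genes kept their direction under every alternative fit, and no called gene among those named reversed. Counts are given as all, higher and lower. The number of calls was 631, 228 and 403 with DESeq2, 902, 246 and 656 with sample quality weights, 943, 345 and 598 at an adjusted p of at most 0.05, 140, 49 and 91 at a fold change of at least 2, 229, 130 and 99 with diet alone in the model, and 3195, 1354 and 1841 without the 5 libraries that stood apart. The additive model gave 255, 115 and 140 and no fold criterion 505, 225 and 280. The calls with an interaction among the called genes, 1 in the main fit, were 9 with DESeq2, 194 with quality weights, 29 without the 5 libraries, 3 with no fold criterion, 2 each with no filter, the replicate block and the GC correction, and 0 at an adjusted p of at most 0.05. The cause was not tested.

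With 1 library left out, calls ranged from 203 to 693, the higher ones from 64 to 237, the lower ones from 133 to 489 and the interactions from 1 to 11. Calls rose by over 1.5 times without chow fl/fl mouse 3 (693), HFD fl/fl mice 4 and 6 (602 and 524), HFD AKO mouse 6 (554) and chow AKO mouse 5 (549). They fell by over 1.5 times without HFD fl/fl mice 1 and 5 (203 and 211), HFD AKO mouse 2 (225), chow AKO mouse 3 (222) and chow fl/fl mice 4 and 5 (223 and 227). Of the 50 called genes named, 40 stayed called in all 24 of these fits, and Ciita, Col4a4, Gapdh, Igfbp2, Mt2, Nr1d2 and Psmc1 lost the call in 9 to 17 of them. Mast cell calls fell from 14 to 10 with limma-voom and with the replicate block, and to 13 in the additive model and without HFD fl/fl mouse 1.

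The replicate numbers were used as a block only here, since the samples share only a number: over 36 pairs of libraries with the same number the median correlation of their deviations was 0.0018, and 5 of 24 libraries correlated best with their own number. The block gave 256, 73 and 183 calls, and 12 of the 50 called genes named lost the call. Spink2, near 0 in the main fit (-0.04), was 0.26 with limma-voom, 0.32 with quality weights, 0.014 without scaling factors, 0.12 with the replicate block, 0.013 with the GC correction and from -0.26 to 0.30 with 1 library left out. Genes under a few CPM, such as Erv3, Ctsg and Casq2, rest on few reads in the shallowest library.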
